A study of Mus musculus with 10 samples.

Results

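The subject is a set of 10 transcripts best known from hepatocytes, the secretory cells of the liver, followed through peritoneum libraries of mice with and without Mr1: Alb, Apoa2, Ttr, Fga, Fgb, Fgg, Ahsg, Serpina1a, Serpina3k and Mup20. They were chosen by their counts in these same libraries, since Alb and others had been seen higher in all libraries of Mr1-/- mice. The genotype difference is therefore described here without a test. All 10 symbols were found among the 21877 of the count table.

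The libraries fall into 4 groups of male C57BL/6 mice injected intraperitoneally for 6 weeks: 2 libraries of Mr1-/- mice given 4.25% peritoneal dialysis (PD) fluid, 2 of Mr1-/- mice given PBS, 3 of Mr1+/+ mice given PD fluid and 3 of Mr1+/+ mice given PBS. Mr1 encodes an antigen-presenting molecule that MAIT cells, an innate-like T cell population, recognise. The labels say neither how the Mr1-/- mice were made nor whether each library is 1 animal, so the p-values here reflect variation among libraries that may be partly or wholly technical. Genotype and any handling that the 4 Mr1-/- libraries shared cannot be told apart in this design.

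Hepatocytes make most proteins of blood plasma. Albumin carries fatty acids and hormones, apolipoproteins coat lipoprotein particles, fibrinogen forms the fibre of a blood clot, and serpins inhibit proteases. These genes are switched on together in hepatocytes by a small set of transcription factors, among them HNF1, HNF4 and the C/EBP family, and in an adult most of them are far lower in other tissues. In a bulk sample, fewer cells of a type and less RNA per cell cannot be told apart.

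Libraries held 14145635 to 16335799 counts. Mr1 itself had 29 to 39 counts in Mr1-/- and 324 to 524 counts in Mr1+/+ libraries, or 1.97 to 2.45 CPM against 20.3 to 32.6 CPM (counts scaled to a common library size with TMM factors). Replicates 1 and 2 of Mr1-/- PD fluid and replicates 1 and 2 of Mr1+/+ PBS differed from each other far less (chi-square per gene 1.74 and 2.23) than other pairs within groups (18.6 to 118). Each of these pairs was summed and counted as 1 sample, which left 8 samples, with n of 1, 2, 3 and 2 in the group order above. The mesothelial markers Msln and Upk3b, which define the lining of the peritoneum, were read in every library, with 124 to 490 and 384 to 2301 counts in Mr1-/- and 149 to 837 and 513 to 2970 counts in Mr1+/+. Mr1+/+ PBS replicate 3 stood apart. It held the intestinal mucin Muc2 at 9446 counts and the pancreatic lipase Pnlip at 71516 counts, against at most 38 and 15047 counts in any other library.

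The starts of 4 of the genes are shown, those of the searched promoters that held the half-site described here. The searched promoters of Apoa2, Fgg and Ahsg did not hold it and are not shown. That the sequences shown share the half-site is therefore no result of comparing them. Sequences were taken from RefSeq (GRCm38.p6, the mm10 assembly), 5′ to 3′ on the gene's own strand. Each runs from 130 bases before to 50 bases after the RefSeq start. For Fgb this start matches that of the GENCODE gene given below, but for Alb, Fga and Serpina1a it does not. Capitals mark matches to GTTAAT or its reverse complement ATTAAC, the half-site of the liver factor HNF1. The windows are chr5:90460740-90460919 (plus strand) for Alb, chr3:83026023-83026202 (plus) for Fga, chr3:83049814-83049993 (minus) for Fgb and chr12:103863570-103863749 (minus) for Serpina1a.
Alb: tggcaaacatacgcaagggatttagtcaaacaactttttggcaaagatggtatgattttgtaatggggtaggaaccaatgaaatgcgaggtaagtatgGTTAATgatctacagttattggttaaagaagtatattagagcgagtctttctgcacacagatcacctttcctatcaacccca
Fga: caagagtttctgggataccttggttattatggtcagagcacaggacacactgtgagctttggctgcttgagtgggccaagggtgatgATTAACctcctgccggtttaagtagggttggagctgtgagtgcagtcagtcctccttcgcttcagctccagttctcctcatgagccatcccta
Fgb: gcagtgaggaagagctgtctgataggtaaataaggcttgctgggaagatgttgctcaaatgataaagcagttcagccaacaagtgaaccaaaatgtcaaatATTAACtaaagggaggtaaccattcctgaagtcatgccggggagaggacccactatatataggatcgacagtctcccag
Serpina1a: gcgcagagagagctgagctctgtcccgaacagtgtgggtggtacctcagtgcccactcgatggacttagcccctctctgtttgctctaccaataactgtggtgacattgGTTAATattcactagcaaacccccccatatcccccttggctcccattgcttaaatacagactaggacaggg

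Of the 10 genes, 7 had their promoter searched over 300 bases. Serpina3k and Mup20 had no promoter entry, and Ttr was left out of the search by choice. The half-site GTTAAT, read on both strands, stood in 4 of the 7 searched. Counted from the RefSeq start, it was at -32 in Alb, -43 in Fga, -29 in Fgb and -21 in Serpina1a. The Fga site lies inside the gene as GENCODE places it. It stood in 7.10% of 32851 mouse promoters of the same length. The C/EBP letters TTGCNNAA, also read on both strands, stood in 5 of the 7 (Alb, Fga, Fgb, Ahsg and Serpina1a), against 10.8% of all promoters. The whole HNF1 palindrome and the HNF4 letters CAAAGTCCA were in none of the 7 and in 0.00913% and 0.475% of all promoters. TATAAA on the gene strand was in 1, that of Apoa2 at -212, against 8.32% of all. A match is a run of letters and no measured binding, and a missing match says only that these letters are not in the window.

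The genes lie on 7 chromosomes. Alb (ENSMUSG00000029368.10; mm10 chromosome 5, 90460897 to 90476602, plus strand) lies 14.1 kb upstream of Afp, the fetal albumin-like gene. Afp did not share the pattern, with 42 to 65 counts in the Mr1-/- libraries and 11 to 60 counts in the Mr1+/+ libraries. Fgg (83007724 to 83015049, plus), Fga (83026076 to 83033627, plus) and Fgb (83040141 to 83049863, minus) stand side by side on chromosome 3, with 11 kb between Fgg and Fga and 6.51 kb between Fga and Fgb. Serpina1a (103853589 to 103863562, minus) and Serpina3k (104338486 to 104346144, plus) are both on chromosome 12. Ahsg is on chromosome 16 (22891277 to 22899449, plus), Mup20 on chromosome 4 (62050234 to 62054158, minus) and Ttr on chromosome 18. Of the 10, Apoa2 alone (171225054 to 171226379, plus) lies on chromosome 1, the chromosome of Mr1, and it is 16.1 Mb away from Mr1.

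Albumin was the most abundant of the set in Mr1-/- tissue, but not in Mr1+/+ tissue, where Serpina3k had 424 counts in all and Alb 82. Alb had 1698 and 1684 counts in the Mr1-/- PD fluid libraries and 1542 and 947 counts in the Mr1-/- PBS libraries, against 35, 12 and 21 counts in the Mr1+/+ PD fluid libraries and 3, 4 and 7 counts in the Mr1+/+ PBS libraries. Every Mr1-/- library was above every Mr1+/+ library, and the groups did not come near each other. Pooled over libraries, the level was 96.3 CPM in Mr1-/- and 0.883 CPM in Mr1+/+, a ratio of 109 (95% exact binomial interval 87.7 to 137, which covers counting error only, as do all intervals here).

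The fibrinogen chains were nearly absent from Mr1+/+ tissue. Fga, the alpha chain, had 95 and 98 counts in Mr1-/- PD fluid and 91 and 54 counts in Mr1-/- PBS, against 1, 0 and 0 counts in Mr1+/+ PD fluid and 0 in each Mr1+/+ PBS library. Fgb, the beta chain, had 67 and 76 counts in Mr1-/- PD fluid and 62 and 36 counts in Mr1-/- PBS, against 0 in all 6 Mr1+/+ libraries. Fgg, the gamma chain, had 37 and 41 counts in Mr1-/- PD fluid and 33 and 20 counts in Mr1-/- PBS, against 1, 0 and 0 counts in Mr1+/+ PD fluid and 0 in each Mr1+/+ PBS library. All 3 genes were thus read in each Mr1-/- library and stayed at or below 1 count elsewhere. With a floor of 3 counts over the 6 Mr1+/+ libraries, Fgb was at least 122-fold higher in Mr1-/-. With 1 count in Mr1+/+ each, the pooled ratio was 515 for Fga (interval 91.8 to 20394) and 199.5 for Fgg (35.2 to 7940), so its size is barely fixed.

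Mup20, which encodes a major urinary protein that male mouse liver secretes and that acts as a pheromone, had 131 and 115 counts in Mr1-/- PD fluid and 98 and 78 counts in Mr1-/- PBS, against 0 in all 6 Mr1+/+ libraries. It was at least 214-fold higher in Mr1-/- by the same floor. Major urinary protein genes are near-identical copies, so reads could be split among them and the value of any single copy is uncertain. The table holds 22 of them, and 19 never passed 10 counts in any library. Besides Mup20, Mup3 had 27 to 53 counts in the Mr1-/- libraries and 0 to 17 counts in the Mr1+/+ libraries, and Mup7 had 7 to 13 and 0.

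Apoa2, an apolipoprotein of high-density lipoprotein, had 88 and 92 counts in Mr1-/- PD fluid and 81 and 52 counts in Mr1-/- PBS, against 1, 2 and 3 counts in Mr1+/+ PD fluid and 1, 0 and 5 counts in Mr1+/+ PBS. The pooled ratio was 39.7 (interval 22.4 to 77.7), and the groups were far apart.

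Ttr, the carrier of thyroid hormone and of the retinol-binding protein, had 76 and 96 counts in Mr1-/- PD fluid and 66 and 50 counts in Mr1-/- PBS, against 0 in each Mr1+/+ PD fluid library and 0, 0 and 42 counts in Mr1+/+ PBS. The 42 counts were all in replicate 3, the library with intestinal and pancreatic transcripts. At 2.97 CPM that library came close to the lowest Mr1-/- library, at 3.40 CPM. The same library had 78 counts of Gcg, the glucagon gene of islet and intestinal endocrine cells, against at most 2 counts elsewhere; Ttr is also made in islets, and the part of these cells in the value was not tested. The other two Mr1+/+ PBS libraries were at 0, so a fitted difference under PBS rests on this library or on the prior count, and none is given.

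The last 3 genes, like Alb, were read in every Mr1+/+ library. Ahsg, or fetuin-A, which keeps calcium phosphate in solution, had 132 and 135 counts in Mr1-/- PD fluid and 152 and 80 counts in Mr1-/- PBS, against 7, 34 and 27 counts in Mr1+/+ PD fluid and 3, 3 and 5 counts in Mr1+/+ PBS. The pooled ratio was 9.62 (interval 7.58 to 12.4).

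Serpina1a, a form of alpha-1-antitrypsin, had 66 and 52 counts in Mr1-/- PD fluid and 86 and 52 counts in Mr1-/- PBS, against 46, 29 and 22 counts in Mr1+/+ PD fluid and 18, 26 and 24 counts in Mr1+/+ PBS. Serpina3k, a relative of alpha-1-antichymotrypsin, had 206 and 197 counts in Mr1-/- PD fluid and 205 and 162 counts in Mr1-/- PBS, against 55, 73 and 108 counts in Mr1+/+ PD fluid and 88, 75 and 25 counts in Mr1+/+ PBS. The pooled ratios were 2.36 and 2.77, the smallest of the set. For Serpina1a the closest libraries were 3.36 CPM in Mr1-/- and 2.86 CPM in Mr1+/+. Both belong to clusters of close copies whose reads could be shared. Of 6 Serpina1 genes, Serpina1a and Serpina1d were separated by genotype, while Serpina1b, at 204 to 273 counts in Mr1-/- and 101 to 238 counts in Mr1+/+, lay just outside. Of 10 Serpina3 genes, Serpina3k alone was separated.

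All 10 genes were thus higher in every Mr1-/- library than in every Mr1+/+ library, a pattern shown by 5.40% of the 15385 genes tested; 2.56% showed the reverse. Since this pattern chose the genes, nothing is read from that count. In the fit over all genes, edgeR called 0.0065% of genes higher and 0.0065% lower (0.013% in all) in Mr1-/- under PBS, and the same shares under PD fluid. The gene called lower was Mr1. Under PBS, DESeq2 called 212 genes, and 1329 had an unadjusted edgeR p under 0.05. Both numbers were larger under PD fluid, where Mr1-/- has 1 sample. The few edgeR calls thus do not show that little else differed by genotype. The 10 together took 0.0165% and 0.0171% of all counts in the Mr1-/- PD fluid libraries and 0.0171% and 0.0107% in the Mr1-/- PBS libraries, against 0.000926% to 0.00111% in Mr1+/+ PD fluid and 0.000661% to 0.000751% in Mr1+/+ PBS. Alb made up 61.9% to 65.4% of this sum in Mr1-/- tissue and 2.65% to 24% in Mr1+/+ tissue, where Serpina3k and Serpina1a held most of it in all but Mr1+/+ PBS replicate 3.

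**Figure D1:**
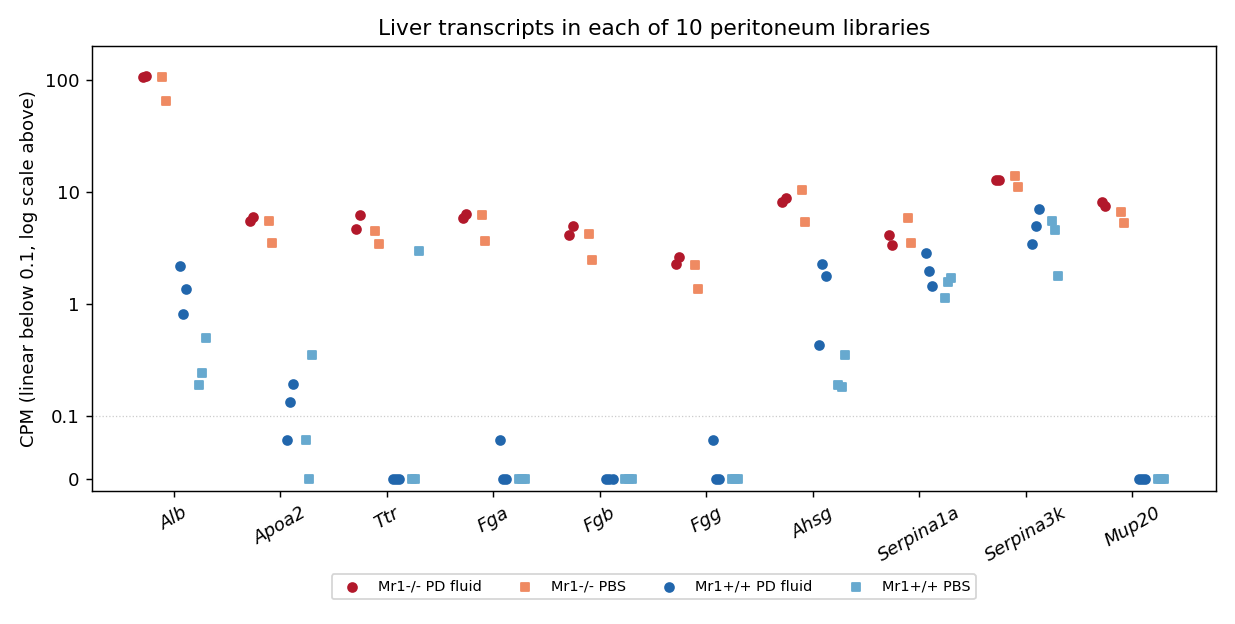
Level of each of the 10 liver transcripts in CPM (linear below 0.1, logarithmic above), 1 point per library, Mr1-/- in red and orange, Mr1+/+ in blue. Mr1-/- points lie above Mr1+/+ points for every gene, widely for Alb, Apoa2, Fga, Fgb, Fgg and Mup20, and narrowly for Serpina1a and for Ttr, where Mr1+/+ PBS replicate 3 reached 2.97 CPM.

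Levels of different genes were compared per length of their annotated exons. In CPM per kilobase, Alb was at 27.5 to 46.5 in the Mr1-/- libraries, ahead of Apoa2 at 6.59 to 11.1 and Mup20 at 5.72 to 8.74. Serpina3k was at 5.36 to 6.79, Ttr at 2.87 to 5.24, Ahsg at 2.48 to 4.72 and Serpina1a at 1.84 to 3.20. Fibrinogen chains were lowest, with Fga at 1.22 to 2.11, Fgb at 0.643 to 1.29 and Fgg at 0.650 to 1.27. Alb was clear of all others, whereas the ranges of Apoa2, Mup20 and Serpina3k overlapped, as did those of Ttr, Ahsg and Serpina1a and those of the fibrinogen chains; that of Serpina1a also met that of Fga. In the Mr1+/+ libraries the order on this per-length scale was different, with Serpina3k at 0.859 to 3.42 and Serpina1a at 0.616 to 1.56, while Alb was at 0.0803 to 0.929.

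Within Mr1-/- tissue 7 of the other 9 genes kept similar proportions to Alb. For every 100 Alb counts, Apoa2 had 5.18 and 5.46 counts in the PD fluid libraries and 5.25 and 5.49 counts in the PBS libraries. Fga had 5.59 and 5.82 in PD fluid and 5.90 and 5.70 in PBS. Over the 4 libraries the highest ratio was 1.06 times the lowest for Apoa2, 1.05 times for Fga, 1.15 times for Fgg and 1.19 times for Fgb. It was 1.27 times for Ahsg, 1.30 times for Mup20 and 1.33 times for Ttr, and for each of these 7 genes the 95% intervals of all 4 libraries overlapped. With 20 to 152 counts a library for these genes the intervals are wide, so overlap leaves room for modest shifts. The PD fluid libraries are near-identical and count as 1 sample in the tests, so they are not separate evidence. Serpina3k (11.7 to 17.1 per 100 Alb counts) and Serpina1a (3.09 to 5.58) were the exceptions, with ratios that moved 1.46 and 1.81 times and intervals that did not all overlap. They are also the genes with the highest counts in Mr1+/+ tissue relative to Mr1-/-.

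**Figure D2:**
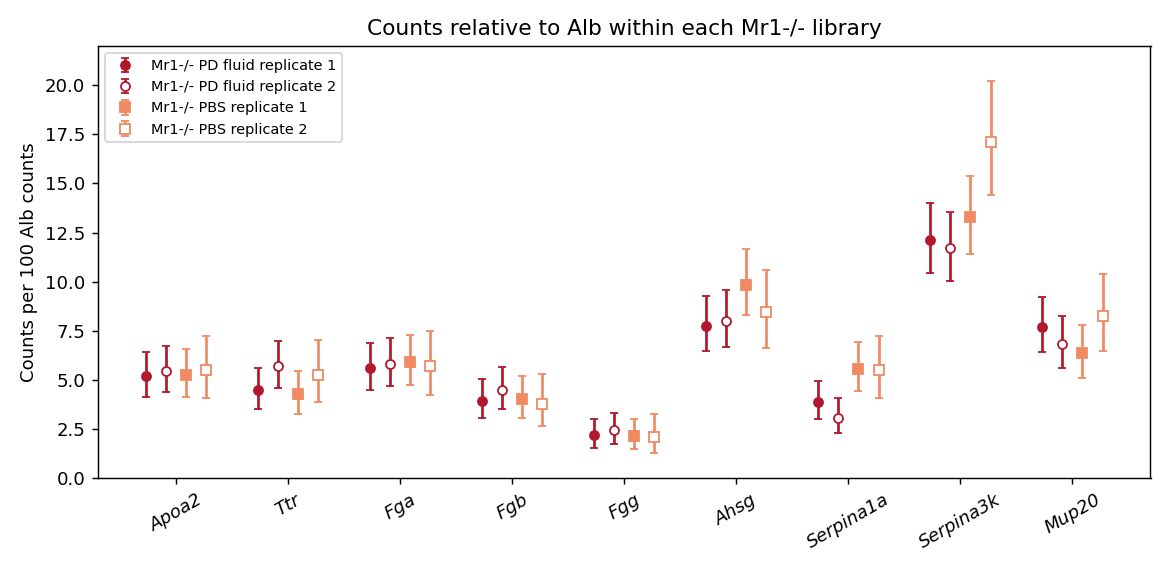
Counts of 9 liver transcripts for every 100 Alb counts in each of the 4 Mr1-/- libraries, with 95% exact binomial intervals as bars (counting error only). Apoa2, Fga and Fgg sit at nearly the same height in all 4 libraries, while Serpina1a is lower in the PD fluid libraries and Serpina3k is highest in PBS replicate 2.

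Mr1-/- PBS replicate 2 was the lowest Mr1-/- library for 9 of the 10 genes, the exception being Serpina1a. Alb was 1.63 times higher in PBS replicate 1 than in PBS replicate 2. Replicate 2 also held the muscle filament gene Des at 760 CPM, against 128 to 173 CPM in the other Mr1-/- libraries, and its summed mesothelial markers were at 58.0 CPM, against 166 to 301 CPM in the other Mr1-/- libraries. The part of these tissues in the lower liver values was not tested.

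PD fluid was not used to choose the genes, so its effect was tested with edgeR's quasi-likelihood test, Benjamini-Hochberg adjusted over all 15385 genes. In Mr1-/- mice, 1 PD fluid sample against 2 PBS samples, none of the 10 genes was called (0 at an unadjusted p under 0.05, 0 by DESeq2), and over all genes 0% were called (231 at an unadjusted p under 0.05, 3 by DESeq2). Alb was at 106.8 CPM in the PD fluid sample and 84.5 ± 28.9 CPM in PBS (SD, n = 2), a log2 fold change of 0.34 (SE 0.46, adjusted p = 1). The standard error is wide enough to leave a change of either sign within reach. Without PBS replicate 2 the Alb value was 0.03, and without PBS replicate 1 it was 0.74.

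In Mr1-/- mice the other genes had log2 fold changes between -0.33 (SE 0.58), for Serpina1a, and 0.46 (SE 2.41), for Ttr. The PD fluid libraries lay above both PBS libraries for Alb, Ttr, Fgg and Mup20, 4 of 10 genes, against 21.3% of all genes tested. For Alb this rested on 105.2 and 109 CPM in PD fluid against 105.1 and 64.4 CPM in PBS, where PBS replicate 1 was level with the PD fluid libraries.

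In Mr1+/+ mice, 3 PD fluid samples against 2 PBS samples, Alb rose. It was at 2.18, 0.809 and 1.37 CPM in the PD fluid libraries, against 0.188, 0.242 and 0.495 CPM in the PBS libraries, so all PD fluid libraries were higher, as in 23.3% of all genes tested. Over samples it averaged 1.45 ± 0.686 CPM in PD fluid (SD, n = 3) and 0.353 ± 0.195 CPM in PBS (SD, n = 2). The log2 fold change was 2.20 (SE 0.59, edgeR adjusted p = 0.0484), and of the genes tested 8.49% were called higher and 6.37% lower, 14.9% in all. These levels rest on 3 to 35 counts a library, and the call is close to the threshold. It was lost without any of Mr1+/+ PD fluid replicates 1, 2 and 3 (adjusted p = 0.0831, 0.0549 and 0.144) and without Mr1+/+ PBS replicate 1 or 2 (0.0592 and 0.0622), with log2 fold changes of 1.78 to 2.72 over all libraries left out in turn.

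Ahsg was at 0.435, 2.29 and 1.76 CPM in the Mr1+/+ PD fluid libraries, against 0.188, 0.182 and 0.353 CPM in the Mr1+/+ PBS libraries. All PD fluid libraries were higher, but the gene did not pass (log2 fold change 2.52, SE 0.77, adjusted p = 0.0629). Without Mr1+/+ PD fluid replicate 1 it passed (2.96, adjusted p = 0.0193), and DESeq2 called it too (2.54, adjusted p = 0.0101). Mup3 was likewise higher in replicates 2 and 3, at 16 and 17 counts against 2 counts in replicate 1, and so was the acute-phase gene Saa1, at 132 and 170 counts against 0. Alb and Serpina1a went the other way, with 12 and 21 and with 29 and 22 counts in replicates 2 and 3, against 35 and 46 counts in replicate 1. Summed pancreatic acinar markers were at 3991 and 4742 CPM in replicates 2 and 3 against 179 CPM in replicate 1, and the part of such tissue in Ahsg was not tested.

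Serpina1a (log2 fold change 0.46, SE 0.45, adjusted p = 0.495) and Serpina3k (0.57, SE 0.47, adjusted p = 0.424) did not pass in Mr1+/+ mice, and the libraries of both treatments overlapped. Apoa2 had at most 5 counts in any Mr1+/+ library and is given no fold change there, nor are Fga, Fgb, Fgg and Mup20, which had at most 1 count. All Ttr counts in Mr1+/+ came from 1 PBS library, so no fold change is given for it either. At this depth 3 counts correspond to 0.182 to 0.212 CPM in a Mr1+/+ library, and a smaller level can leave 0 counts and be missed.

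The difference between the PD fluid effects, Mr1-/- minus Mr1+/+, was -1.86 on the log2 scale for Alb (SE 0.77, adjusted p = 0.367). Fga, Fgb, Fgg and Mup20 had no Mr1+/+ level from which an interaction could be read. Nor could one be read for Apoa2 and Ttr, which are given no Mr1+/+ fold change. Among Alb, Ahsg, Serpina1a and Serpina3k none was called (1 at an unadjusted p under 0.05, Alb, and 0 by DESeq2). Over all genes tested 0% were called (2037 at an unadjusted p under 0.05 and 472 by DESeq2). So the PD fluid difference of Alb, called close to the threshold in Mr1+/+ mice, was not shown to differ between genotypes.

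Across the whole table, presence in Mr1-/- with near absence in Mr1+/+ was rare and ran in a single direction. Of 21877 symbols, 21 had at least 10 counts in each of the 4 Mr1-/- libraries and at most 3 counts in each of the 6 Mr1+/+ libraries, and 0 showed the reverse. With at least 5 counts the numbers were 37 and 0, and with at least 20 counts 16 and 0. These cut-offs were chosen after the values were seen, and the counts are descriptions. The 21 hold 4 of the set (Fga, Fgb, Fgg and Mup20), 9 other genes of the liver lists and 8 on no list. The 9 include Gc, the vitamin D carrier (62 to 140 counts in Mr1-/- and 0 to 1 in Mr1+/+), Bhmt, an enzyme of methionine metabolism (43 to 89 and 0 to 1), Plg, the precursor of plasmin (21 to 52 and 0 to 1), and Kng1, the kininogen (25 to 44 and 0). The 8 include the protease inhibitors Mug1 (111 to 176 and 0) and Pzp (33 to 71 and 0), the fatty acid hydroxylase Cyp4a14 (47 to 88 and 0 to 2) and the carboxylesterase Ces1c (22 to 59 and 0).

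**Figure D3:**
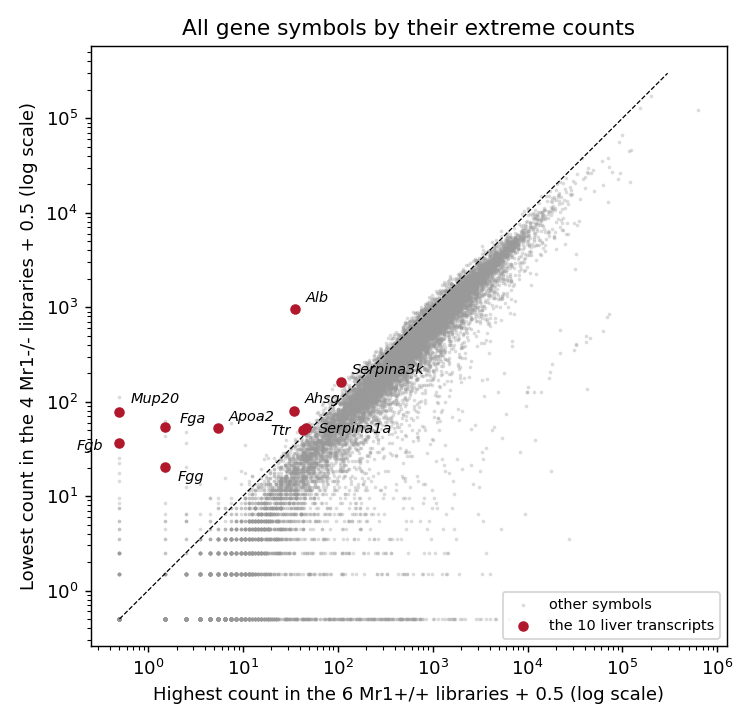
Each of 21877 gene symbols placed by its highest count in the 6 Mr1+/+ libraries (horizontal) and its lowest count in the 4 Mr1-/- libraries (vertical), both plus 0.5 on log scales, with the 10 liver transcripts in red and equality as a dashed line. The 10 lie above the line, and Mup20 and Fgb stand at the left edge, with 0 counts in every Mr1+/+ library.

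Genes whose profile was most like that of Alb were ranked by Pearson correlation of log2 CPM (prior count 2) over the 8 samples, among 13680 genes with a mean of at least 1 CPM. The 8 closest outside the set were Hpx, the haem carrier hemopexin (0.987), Gc (0.984), Cyp4a14 (0.983), Pzp (0.983), Mug1 (0.982), Plg (0.982), Bhmt (0.976) and Zmat1 (0.961). Zmat1, the last of them, differed by less, with 155 to 168 counts in Mr1-/- and 79 to 121 counts in Mr1+/+. Within the set, Fga, Fgb and Mup20 had correlations of 0.991, 0.984 and 0.983, and Ttr had 0.774, the lowest of the 8 that passed the limit of 1 CPM; Fgg did not pass it. The samples share their genotype split, so these values describe that split as much as any finer likeness.

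Other secreted products of hepatocytes were read from a list of 29 genes without the 10. Of these, 14 had every Mr1-/- library above every Mr1+/+ library (48.3%), against 5.40% of all genes tested. Without Mr1+/+ PBS replicate 3 the count was 17 (58.6%, against 7.67%). The list shares are over all 29 genes, of which 27 were tested. The list was chosen with earlier results of these data known, so the shares are descriptions. Apoa1 and Apob, apolipoproteins that the intestine also makes, were high in that library. Apoa1 had 80 to 159 counts in Mr1-/- and at most 3 counts in 5 Mr1+/+ libraries, but 2015 counts in Mr1+/+ PBS replicate 3, and Apob had 34 to 51, at most 2 and 1335. The genes of the list with the highest levels did not follow genotype. Trf, or transferrin, had 19715 to 23949 counts in Mr1-/- and 18023 to 61794 counts in Mr1+/+, and Hp, Rbp4 and Vtn, a haemoglobin scavenger, the retinol carrier and vitronectin, also overlapped. Trf, Hp, Rbp4 and Orm1 are made in fat as well as liver. All 4 were called higher with PD fluid in Mr1+/+ mice (log2 fold changes 1.58, 3.58, 2.01 and 2.70, edgeR adjusted p = 0.0124, 0.0173, 0.0124 and 0.0184). These calls were lost without Mr1+/+ PD fluid replicate 3, where no gene was called. Over the 27 list genes tested, the median fitted log2 difference, Mr1-/- minus Mr1+/+, was 1.21 under PBS and 1.73 under PD fluid, beside -0.02 and 0 over all genes; fitted values of genes at 0 in a group depend on the prior count.

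Of 35 hepatocyte enzymes, 7 were separated by genotype (20%, against 5.40% of all genes tested). Without Mr1+/+ PBS replicate 3, 18 were (51.4%, against 7.67%). This list too was chosen with earlier results of these data known. Cps1, which starts the urea cycle, had 62 to 138 counts in Mr1-/-, at most 2 counts in 5 Mr1+/+ libraries and 371 counts in that library. The drug-oxidising Cyp3a11 had 43 to 60 counts in Mr1-/-, 0 in those 5 libraries and 103 counts in the remaining one. Both enzymes are also made in gut epithelium. Cyp2e1, Pck1, Glul and Oat, the most abundant enzymes of the list, overlapped between genotypes. Cyp2e1, Pck1, Glul, Gys2 and Adh1 were called higher with PD fluid in Mr1+/+ mice (log2 fold changes 1.19 to 2.06, edgeR adjusted p = 0.0124 to 0.0304). No gene was called in that comparison without Mr1+/+ PD fluid replicate 3, so these calls rest on that library.

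Among 12 hepatocyte transcription factors, Prox1, which lymphatic endothelium also makes, had 462 to 825 counts in Mr1-/- and 346 to 570 counts in Mr1+/+, and overlapped. Hnf4a, the master regulator of hepatocyte identity, had 12 to 36 counts in the Mr1-/- libraries and 1 to 7 counts in 5 Mr1+/+ libraries, but 3072 counts in Mr1+/+ PBS replicate 3; intestinal epithelium also makes it. Of the 12 factors 0 were separated with all libraries and 3 without that one (25%, against 7.67% of all genes tested). Among 11 male-biased liver genes 4 were separated (36.4%, against 5.40% of all genes tested), including Mup3, Mup7 and Cyp2d9. Among 8 female-biased genes 0 were. In both lists 7 genes never passed 10 counts in any library. The study's design text gives the mice as male.

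Few markers of cell types that neighbour hepatocytes in the liver were separated by genotype. Several were high in Mr1+/+ libraries too, such as Des at 2098 to 4680 counts and Lyve1 at 2664 to 5491 counts. Against such levels a small addition would not be seen, so the lists cannot show whether such cells differed. Of 7 Kupffer cell markers, the resident macrophages of the liver, only Clec4f was separated (14.3%, against 5.40% of all genes tested). It had 2 to 4 counts in the Mr1-/- libraries and 0 in all Mr1+/+ libraries, so near the floor of 3 counts that no fold is given. The list includes genes that peritoneal macrophages also make, such as Marco, and it summed to 632 and 653 CPM in Mr1-/- PD fluid and 386 and 461 CPM in Mr1-/- PBS, against 633 to 863 CPM in Mr1+/+ PD fluid and 506 to 618 CPM in Mr1+/+ PBS. Of 8 markers each of sinusoidal endothelium, stellate cells and bile duct cells, 0 were separated. Without Mr1+/+ PBS replicate 3, the counts were 0, 1 and 1 (0%, 12.5% and 12.5%, against 7.67% of all genes tested).

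Summed pancreatic acinar markers were at 6373 and 6523 CPM in Mr1-/- PD fluid and 339 and 812 CPM in Mr1-/- PBS, against 179 to 4742 CPM in Mr1+/+ PD fluid and 590 to 31848 CPM in Mr1+/+ PBS. Of 14 acinar, 13 enterocyte, 7 islet and 8 kidney tubule markers, 0 had every Mr1-/- library above every Mr1+/+ library, against 5.40% of all genes tested. The kidney genes Umod, Kap, Slc22a6 and Slc12a1 were at 0 in all 10 libraries. The gut antimicrobial lectin Reg3g was lower in every Mr1-/- library, at 0 to 4 counts, against 7 to 243 counts in Mr1+/+. Enterocyte markers summed to 76.5 to 90.0 CPM over the 4 Mr1-/- libraries, against 87.1 to 169 CPM over 5 Mr1+/+ libraries, with 1638 CPM in Mr1+/+ PBS replicate 3. In Mr1+/+ mice erythroid genes, a measure of blood in the tissue, were higher after PD fluid. Their sums were 85.2 to 240.3 CPM, against 17.2 to 35.8 CPM after PBS. Alb was also higher there, by a call close to the threshold, and the part of blood in its values was not tested.

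**Figure D4:**
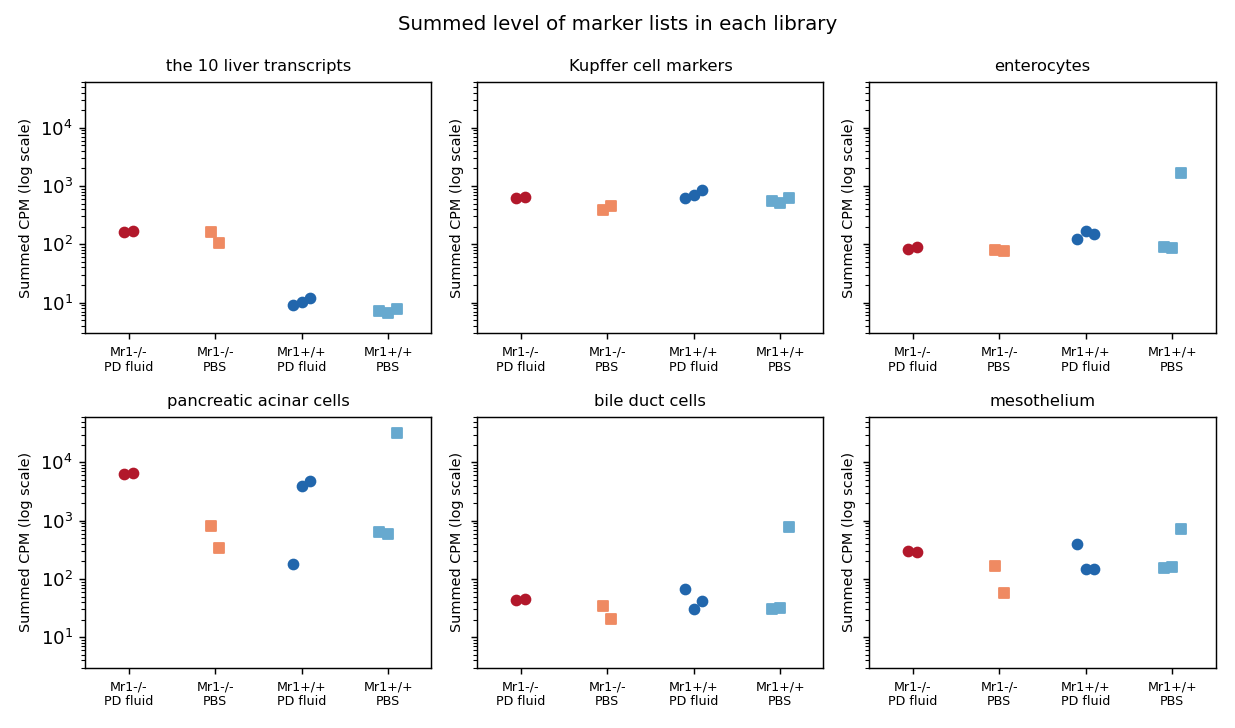
Summed CPM (log scale, the same in every panel) of the 10 liver transcripts and of 5 marker lists, 1 point per library, with the 4 groups side by side. The liver transcripts fall into 2 levels by genotype, at 104 to 167 CPM in Mr1-/- and 6.53 to 11.8 CPM in Mr1+/+. The other lists overlap between genotypes, and Mr1+/+ PBS replicate 3 stands apart in 4 of them. In the mesothelium panel, the keratin gene Krt8 gave 8322 of the 10404 counts of that library. Its Msln (149) and Upk3b (513) counts were the lowest in Mr1+/+.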

How the data were processed

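The authors deposited whole-number read counts per gene symbol, not normalized, for 10 libraries; per the submitters' processing notes the build is mm10. Aligner, counter and annotation: not given in the sources used here. Libraries were made from poly-A-selected RNA with random priming, per the labels' protocols, which name neither strand marking nor molecular identifiers, so intervals and floors cover counting error only. The 21899 rows were summed by symbol to 21877. Columns were matched to samples by genotype, treatment and replicate number.

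Near-identical libraries (chi-square per gene under 0.2 of the median over pairs) were summed, leaving 8 samples, whereas TMM-scaled CPM per library used all 10. After filterByExpr, edgeR 4.0.16 (R 4.3.3, limma 3.58.1) fitted 4 group means with robust quasi-likelihood tests, with calls at a Benjamini-Hochberg adjusted p under 0.05. A lone sample is assumed to vary like the others. All 10 genes passed the filter, several of them only through the Mr1-/- groups. DESeq2 1.42.0, other scalings, no filter, separate libraries, the replicate block and leaving out each library were alternatives; 1 more, leaving out Mr1+/+ PBS replicate 3 from list counts, was chosen after seeing the data. The fit was tested on simulated data. Coordinates and exon lengths are from GENCODE M21.

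The genes, lists and tests were chosen with earlier results of these data known. Named genes are the 10, up to 4 of each list with the highest Mr1-/- level, called list genes, the 8 most like Alb and family copies; not all that this takes are described, and others were named after their values were seen.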

Additional observations from a re-analysis of the deposited data

How the results depend on the processing

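The count of the 10 genes called for PD fluid in Mr1+/+ mice, 1 (Alb), was 2 with DESeq2 and with the 10 libraries separate (Alb and Ahsg), 0 with library totals only, without a filter and with only the groups compared (where 4 of the 10 were tested), and 0 to 1 with each library left out in turn. It was 1 with RLE size factors. The Alb value itself kept its sign throughout. The cause of the lost calls was not tested. Over all genes, 2286 were called in that comparison, 3780 by DESeq2, 5549 with separate libraries, 339 without Mr1+/+ PD fluid replicate 2 and 0 without replicate 3. In Mr1-/- mice 0 of the 10 were called in every setting run. All 10 genes stayed separated by genotype under each scaling and with each library left out.

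With the replicate block, on 10 separate libraries, 3 of the 10 were called for PD fluid in Mr1+/+ mice (Alb, Ahsg and Ttr) and 1, Ttr, for the interaction; the 42 Ttr counts of Mr1+/+ PBS replicate 3 are the only ones in Mr1+/+. Deviations of the 13 same-numbered pairs of libraries correlated between -0.16 and 0.17, over 0.1 in 2. In a group of 2 libraries the deviations mirror each other, so these values cannot show whether same-numbered libraries shared handling. The labels name no batch or date.

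With each library left out in turn, 4 values turned sign. The Serpina3k interaction ran between -0.76 and 0.0059 (the highest without Mr1+/+ PBS replicate 3). For PD fluid in Mr1-/- mice, Ahsg ran between -0.29 and 0.64, Serpina1a between -0.65 and 0.083 and Serpina3k between -0.13 and 0.22, each set by Mr1-/- PBS replicates 1 and 2. With 1 to 3 samples a group and counts under 40 for most of these genes in Mr1+/+, a modest change there would not be seen.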
